A study of Saccharomyces cerevisiae with 1 sample.

Results

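The nucleotides described here are the 37 positions of yeast 25S rRNA, the long RNA of the large ribosomal subunit, that are known to carry a methyl group on the 2′ oxygen of the ribose. They were picked out by their number in the rRNA, with a rule that uses no hits or changes, although earlier results of these data were known when the set was proposed. They make up 37 of the 3396 nucleotides. The values come from 1 CRAC library of BY4742, a laboratory strain of Saccharomyces cerevisiae in which no protein carried a tag. CRAC is a method in which UV light fixes RNA to protein in vivo, the protein is purified through a tag, and the RNA fragments that come along are sequenced. Fragments from the untagged strain are those recovered in the absence of any tagged protein. The cells were grown in minimal medium without tryptophan, with glucose, to an OD of 0.6, and the library was amplified over 16 PCR cycles. A hit is a read that covers the nucleotide, and hits were deposited per 100000 reads together with the substitutions and deletions found in them. The control was 1 library without replicates, so no value has a replicate error, no difference was tested, and all comparisons between nucleotides are descriptions. The pileup bears the name of the gene copy RDN25-1 (YNCL0012C), an rRNA gene that encodes no protein and lies on chromosome XII from 451786 to 455181 in the R64 assembly. RefSeq lists 2 copies of the 25S gene on that chromosome, and the deposited values do not tell reads of the copies apart. The base in the pileup was the one known for the modified nucleotide at 37 of 37 positions, and also at all 36 other modified nucleotides of 25S rRNA used as a check, 30 pseudouridines and 6 base-methylated nucleotides.

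In yeast, most ribose methyl groups are placed by box C/D snoRNPs, in which a small nucleolar RNA base-pairs with the pre-rRNA and so directs the methyltransferase Nop1 to 1 nucleotide. The methyl group takes the place of the proton on the 2′ hydroxyl. Alkaline hydrolysis and nucleases such as RNase A, which cuts after pyrimidines, use this hydroxyl to break the bond on the 3′ side of the nucleotide. Reverse transcriptase at ordinary nucleotide concentrations usually reads a ribose-methylated nucleotide without misreading it, since the base itself is unaltered.

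The 37 nucleotides comprised 12 adenosines, 10 guanosines, 8 uridines and 7 cytidines. Adenosines made up 32.4% of them and 26.5% of the whole 25S rRNA, while uridines made up 21.6% of them and 25.6% of the whole. They were unevenly placed, with 2 in domain I, 12 in domain II, 9 in domain IV and 14 in domain V, which holds the peptidyl transferase center, and none in domains III and VI. In 4 cases 2 methylated nucleotides were direct neighbours (Am649 and Cm650, Am1449 and Gm1450, Am2280 and Am2281, Um2921 and Gm2922), so that the values of such pairs are not independent. The base on the 3′ side was a guanosine in 13 cases, a cytidine or a uridine in 9 cases each and an adenosine in 6.

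The stretches on which the results turn are given below as the pileup has them, 5′ to 3′, with T for U and the methylated nucleotides in capitals. Each begins 6 nucleotides before its first and ends 6 nucleotides after its last methylated nucleotide. The first 4 hold the nucleotides with the 4 highest shares of changed hits, the next 3 hold nucleotides with sharp falls in hits after their 3′ neighbour, and the last 2 the A loop and the stretch of domain V with the highest values.
Gm867 and Am876 (861 to 882): ctcgtaGcggttctgAcgtgca
Um898 and Gm908 (892 to 914): tcgaatTtgggtatagGggcgaa
Am2280, Am2281 and Gm2288 (2274 to 2294): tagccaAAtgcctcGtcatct
Um2724 and Um2729 (2718 to 2735): ttgattTtcagTgtgaat
Cm2337 and Um2347 (2331 to 2353): cactgtCcctatctacTatctag
Um2417 and Um2421 (2411 to 2427): tgagctTgacTctagtt
Gm2791 and Gm2793 (2785 to 2799): aggctaGaGgtgcca
Um2921 and Gm2922 (2915 to 2928): ttggatTGttcacc
Am2946, Cm2948 and Cm2959 (2940 to 2965): aacgtgAgCtgggtttagaCcgtcgt

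Hits at the methylated nucleotides ranged from 17 to 11168, with a median of 119, against a median of 172 at the 3359 unlisted nucleotides. Of the 37, 23 had 100 hits or more (62.2%), against 70.0% of the unlisted nucleotides. Among those with 100 hits or more, the median was 187 hits at the methylated nucleotides and 316 at the unlisted ones, and 9 of the 23 lay above the median of unlisted nucleotides of the same base. Methylated nucleotides held 0.365% of all 25S hits and are 1.09% of its nucleotides. Over the whole 25S rRNA, 195 nucleotides had more than 5000 hits.

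The highest value by far was that of Cm2197, with 11168 hits, which was the only one of the 37 over 5000 hits. The next 4 were Am2946 with 889 hits, Cm2948 with 885, Cm2959 with 834 and Gm908 with 744. Am2946, Cm2948 and Cm2959 lie close together in domain V, so their values are not independent. The lowest were Am2640 with 17 hits, Um1888 with 26, Um2421 with 27, Gm2815 with 36, and Am649 and Cm650 with 46 each. At Am649 the coverage began abruptly, since the nucleotide on its 5′ side had 0 hits. The 6 nucleotides before it include A645, known to carry a methyl group on the base, which had 0 hits as well.

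**Figure D1:**
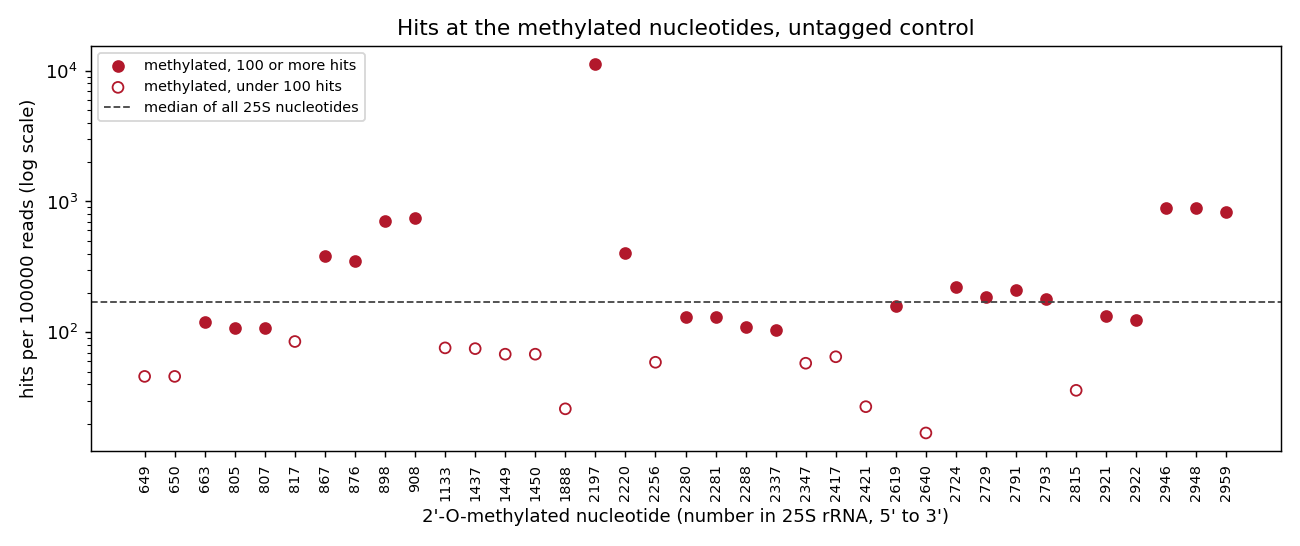
Hits per 100000 reads (log scale) at each of the 37 methylated nucleotides, in their order along the 25S rRNA. Filled points have 100 hits or more and open points fewer, and the dashed line is the median of all 25S nucleotides (170 hits). 13 of the 37 points lie above the line, and the point at 2197 stands apart at 11168 hits.

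By domain, the methylated nucleotides had a median of 46 hits in domain I, 108 in domain II, 110 in domain IV and 168.5 in domain V. In domain V 7 of 14 were at or above the 25S median of 170 hits, in domain II 4 of 12 and in domain IV 2 of 9. The 2 nucleotides of domain I are direct neighbours with the same hits. Hits over all nucleotides of each domain were not computed, so these values may hold for the domains as a whole. Within domain V the values still spanned from 17 to 889 hits. The 2 nucleotides of the A loop, which contacts the tRNA in the A site, had similar values (133 hits at Um2921 and 124 at Gm2922). Gm2619 in the P loop, which contacts the tRNA in the P site, had 158 hits, and Am2256 in helix 69, which forms a bridge to the small subunit, had 59.

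The share of hits that carried a substitution or a deletion had a similar median at methylated and at other nucleotides. Over the 23 methylated nucleotides with 100 hits or more, the median share changed was 0.339%, against 0.323% over the 2351 unlisted nucleotides with 100 hits or more. No change at all was seen at 8 of the 23 (34.8%), against 33.6% of the unlisted nucleotides. A share of 1% or more was found at 6 of the 23, against a background of 19.3% of unlisted nucleotides. With unlisted nucleotides weighted to the same bases, the background was 18.7%. At 100 hits, 1 changed hit already amounts to 1%, so shares at nucleotides with few hits are coarse. Of the 23, 12 had a higher share than the median unlisted nucleotide of the same base.

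The highest share was found at Am2281, where 20 of 131 hits were substituted (15.3%), at percentile 98.7 among unlisted adenosines with 100 hits or more. Its direct neighbour Am2280, which is directed by the same snoRNA and had the same 131 hits, had 1 substitution (0.763%). Gm867 followed with 17 substitutions in 381 hits (4.46%), at percentile 92.7 among unlisted guanosines. Um2729 had 5 substitutions in 187 hits (2.67%), and Um898 had 15 in 706 (2.12%), at percentiles 86.0 and 83.9 of unlisted uridines. Cm2337 had 2 in 104 (1.92%) and Gm2791 had 3 in 211 (1.42%), so that these shares rest on very few changed hits. All of the changes at these 6 nucleotides were substitutions.

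Deletions were recorded at 1 of the 23 methylated nucleotides with 100 hits or more (4.35%) and at 14.1% of the unlisted ones. The nucleotide concerned was Cm2197, with 46 deletions and 29 substitutions in 11168 hits (0.672% changed). Methylated nucleotides had fewer hits than unlisted ones, and a deletion is more easily seen where hits are many. Below 5000 hits, a deletion was recorded at 0 of 22 methylated nucleotides, with a median of 183 hits, and at 10.6% of 2157 unlisted ones, with a median of 269. These 22 had 75 substitutions and 0 deletions in 7223 hits. The unlisted nucleotides with 100 or more hits but under 5000 had 9736 substitutions and 4033 deletions in 1136575 hits. None of the 14 methylated nucleotides under 100 hits had a change, in 752 hits summed over all of them. Among the 827 unlisted nucleotides with at least 17 but under 100 hits, 78.7% had no change, and 650 of 48150 summed hits were changed. The 14 were Am649, Cm650, Am817 (85 hits), Am1133 (76), Cm1437 (75), Am1449 and Gm1450 (68 each), Um1888, Am2256, Um2347 (58), Um2417 (65), Um2421, Am2640 and Gm2815. The minimum of 100 hits fell between Am817 with 85 hits and Cm2337 with 104.

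**Figure D2:**
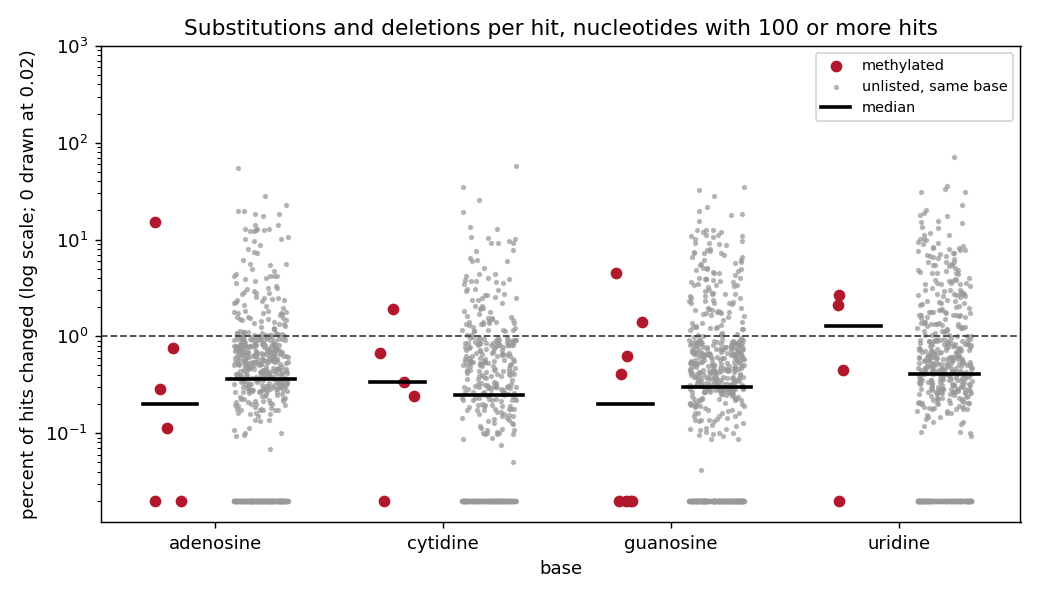
Percent of hits with a substitution or deletion (log scale, with 0 drawn near the foot of the axis) at methylated nucleotides (red, 23 nucleotides) and at unlisted nucleotides of the same base (grey, 2351 nucleotides), all with 100 hits or more. Black bars are medians and the dashed line marks 1%. The red points lie within the range of the grey ones, which reach higher for each base. Am2281 is the highest red point at 15.3%.

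By base, the median share was 0.198% at the 6 methylated adenosines with 100 hits or more and 0.358% at unlisted adenosines. It was 0.339% at 5 methylated cytidines and 0.245% at unlisted ones, and 0.202% at 8 methylated guanosines and 0.296% at unlisted ones. At the 4 methylated uridines it was 1.29%, against 0.405% at unlisted uridines. With 4 to 8 nucleotides per base, these medians rest on single nucleotides, as the uridines show, of which Um2921 had no change in 133 hits and Um2724 had 1 in 221.

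At the neighbours, a share of 1% or more was found at 3 of 23 nucleotides on the 5′ side (−1) and at 3 of 23 on the 3′ side (+1), counting those with 100 hits or more. The background over nucleotides of all bases neither methylated nor next to a methylated one was 19.4%. Weighted to the bases of the neighbours, it was 19.5% for −1 and 19.9% for +1. The median share was 0.45% at −1 and 0.134% at +1, against 0.323% over those other nucleotides. At −1 the 3 were G2618 before Gm2619 with 12 changes in 184 hits (6.52%), U2723 before Um2724 with 5 in 223 (2.24%) and A2958 before Cm2959 with 13 in 900 (1.44%). At +1 they were A2281, itself methylated and next to Am2280, G2221 after Am2220 with 14 changes in 405 hits (3.46%) and C2960 after Cm2959 with 20 in 834. The largest share beside a methylated nucleotide was at C2257, on the 3′ side of Am2256, where 34 of 59 hits were substituted (57.6%), which was below the minimum of 100 hits. Am2256 itself had 0 changes in 59 hits.

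Where reads end or begin, the number of hits changes between a nucleotide and the next. This step was measured across the bond on the 3′ side of each nucleotide, as the difference in hits in percent of the larger of both values. It is a net value, since reads that end before the bond and reads that begin after it cancel. Among the 23 methylated nucleotides whose bond had 100 hits or more on at least 1 side, 0 had a step of 10% or more, against 11.6% of the 2384 unlisted bonds, and 18 had no step (78.3%), against 48.0%. Over all 37 methylated nucleotides with no minimum, 31 had exactly the same number of hits as the next nucleotide (83.8%), against 56.6% of unlisted nucleotides weighted to the same bases, and again 0 had a step of 10% or more, against 12.5%. A step of 0 is more common where hits are few, and methylated nucleotides had fewer hits than others. With a minimum of 500 hits, 5 of 6 methylated nucleotides had no step (83.3%), against 22.7% of unlisted nucleotides weighted to the same bases. These 6 are Um898, Gm908, Cm2197, Am2946, Cm2948 and Cm2959, of which all but Cm2197 lie in 2 short stretches, so they are not 6 separate observations.

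In the whole 25S rRNA, steps were more frequent after pyrimidines than after purines. A step of 10% or more followed 18.8% of unlisted cytidines and 18.1% of unlisted uridines, against 5.91% of unlisted guanosines and 6.28% of unlisted adenosines. After methylated pyrimidines with 100 hits or more the largest step was 6.77%, and 7 of the 9 had none (77.8%), against 37.9% of unlisted pyrimidines. After methylated purines 11 of 14 had none (78.6%), against 56.2% of unlisted purines. Over all 15 methylated pyrimidines with no minimum, 13 had no step (86.7%), against 46.6% of unlisted ones. The nuclease used for the partial digestion is not given in the sources used here.

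The methylated pyrimidines without a step included Um898, with 706 hits on both sides of the bond, Cm2948 with 885 on both sides, Cm2959 with 834, Um2724 with 221 and Um2729 with 187. Cm2197 had 11168 hits and 11137 at the next nucleotide, a step of 0.278%. Steps above 1% were found at Gm2922 (124 hits against 114 at the next nucleotide, 8.06%), Um2921 (133 against 124, 6.77%) and Gm2793 (179 against 170, 5.03%). Am2220 had 407 against 405 hits (0.491%), and with Cm2197 these were the 5 largest steps. Below the minimum of 100 hits, Am817 had 85 hits against 77 at the next nucleotide (9.41%). At each of these 5 nucleotides and at Cm2197 the number of hits was lower on the 3′ side. A step larger than that of Gm2922 was found after 7.68% of unlisted guanosines, and a step larger than that of Um2921 after 23.5% of unlisted uridines.

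**Figure D3:**
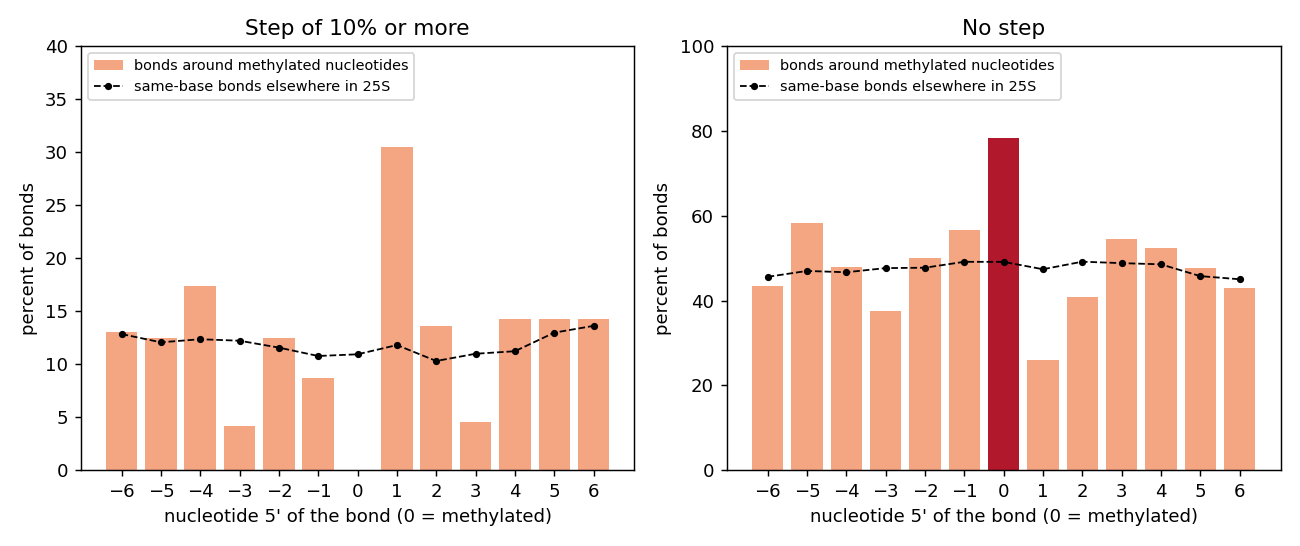
Percent of bonds with a step in hits of 10% or more (left) and with no step (right), by the position of the nucleotide on the 5′ side of the bond relative to the methylated nucleotide (0, dark red), for bonds with 100 hits or more. The dashed line gives nucleotides of the same bases elsewhere in 25S rRNA. At 0 the bars are 0% and 78.3%, and at the next bond they are 30.4% and 26.1%.

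At the next bond, on the 3′ side of the +1 nucleotide, steps were frequent. A step of 10% or more was found at 7 of 23 bonds (30.4%), against 11.8% for the same bases elsewhere, and 6 of 23 had no step (26.1%), against 47.4%. All 17 bonds with a step there had fewer hits on the 3′ side. This bond was examined after the values around the methylated nucleotides had been seen. The sharpest of these 7 falls were after the nucleotide next to Gm2288, where hits were 110 at the methylated nucleotide and its neighbour and 60 after them (45.5%), and at Cm2337, where they were 104, 104 and 69 (33.7%). They were also found at Gm2619 (158, 158 and 128 hits, 19.0%), Cm2959 (834, 834 and 699, 16.2%), Gm2791 (211, 211 and 179, 15.2%) and Um2724 (221, 221 and 190, 14.0%). Gm2922 had 124, 114 and 100 hits (12.3%). The +1 nucleotide was a pyrimidine in 5 of these 7 cases, and a pyrimidine in 11 of the 23 bonds. Among nucleotides with fewer hits, Um2347 had 58, 58 and 29 hits and Um2417 had 65, 65 and 38. The largest step at this bond over all 37 was a rise, at Am2640, with 17, 17 and 49 hits (65.3%).

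On the 5′ side, the bond before the methylated nucleotide had a step of 10% or more in 2 of 23 cases (8.70%), against 10.8% for the same bases elsewhere, and no step in 13 (56.5%), against 49.1%. Where methylated nucleotides lie close together, the same bond is counted at several positions. The fall before Gm2793 is also the fall after the +1 nucleotide of Gm2791. Likewise, the bond after the +1 nucleotide of Um2921 is the 3′ bond of Gm2922. Relative to the methylated nucleotide, the median of hits was 100% at −1 and +1, 98.3% at +2 and 92.1% at +3.

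**Figure D4:**
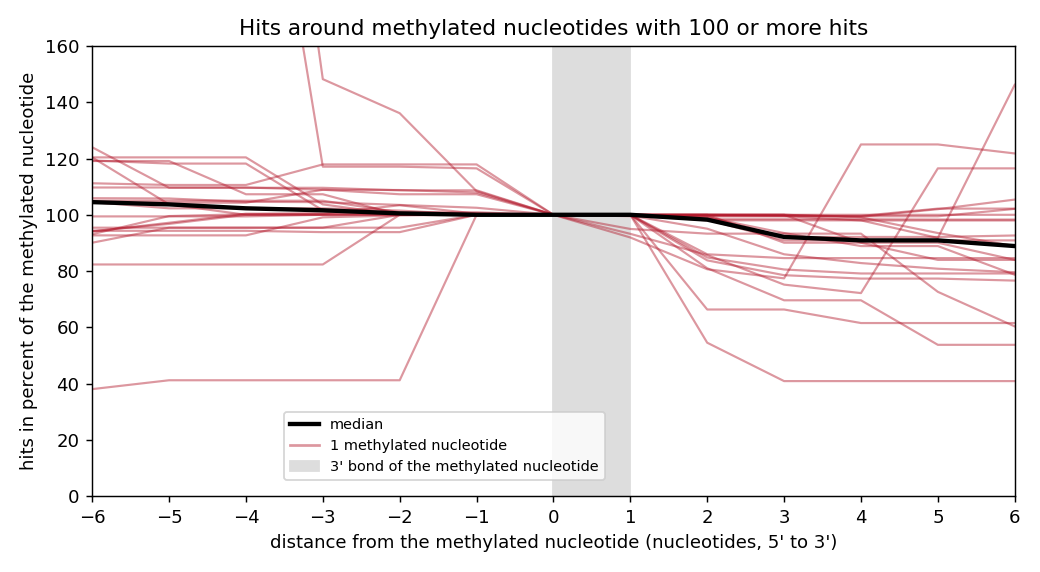
Hits from 6 nucleotides before to 6 nucleotides after each methylated nucleotide with 100 hits or more, in percent of the hits at that nucleotide (23 red lines), with their median in black. Lines are flat or nearly so across the grey bond, where the largest fall is 8.06%, and spread on both sides of it. The lines of Am2220 and Gm2619 leave the plot at the top on the 5′ side, where they reach 415% and 2804%.

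Several snoRNAs direct methylation of more than 1 of these nucleotides, which allows targets of the same guide to be set side by side. For SNR60 they were Am817 with 85 hits and Gm908 with 744. For SNR67 they were Gm2619 with 158 hits and Um2724 with 221. For SNR48 they were Gm2791 with 211 hits and Gm2793 with 179, of which Gm2791 had no step and 3 substitutions, and Gm2793 had a step of 5.03% and no change. The 3 targets of SNR24, Cm1437, Am1449 and Gm1450, had 75, 68 and 68 hits, no step and no change. Am649 and Cm650, the targets of SNR18, had 46 hits each, no step and no change. Gm2922 is methylated by the protein Spb1 without a guide RNA. It had no change in 124 hits, like its guided neighbour Um2921, and the largest step among the 23.

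The guides themselves, except SNR64, were also recovered in the control. The table of snoRNAs lists all 30 guides of these nucleotides, with a median of 347.5 hits per 1000000 reads. The median over all 67 RNAs of the table, these guides included, was 219. The guides were 30 of the 67 RNAs and held 56.1% of the hits. The guide with the most hits, SNR61 (2690), directs methylation of Am1133, which had 76 hits, and SNR75 (2433) directs that of Gm2288, which had 110 hits. SNR64 is listed at 0, and its target Cm2337 had 104 hits. Over the 36 guided nucleotides, Spearman's rho between the hits of the guide and those of the target was 0.296. This is a description across nucleotides, of which several share a guide or lie side by side.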

How the data were processed

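One CRAC library of the untagged strain was analysed. Per the methods and the submitters' processing notes, the authors removed adapters and poor reads with Flexbar, aligned the remainder with Novoalign (assembly R64) and made pileups with pyCRAC. The deposited hits, substitutions and deletions are whole numbers per 100000 reads, and snoRNA hits are per 1000000 reads. Both were treated as a score and not as counts, because it is unknown whether the authors scaled them or stopped counting at that number. The full sequencing depth is unknown, and no intervals are given. Hits of PCR copies are not independent molecules.

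Share changed was substitutions plus deletions over hits, for nucleotides with at least 100 hits. Reference nucleotides were all others, restricted or weighted to the same base where this is said, and for neighbours also not next to a methylated one. Thresholds were 1% for the share and 10% for the step. Percentiles use mid-ranks for ties. Values in full were given for the 5 nucleotides with most and with fewest hits, those changed in 1% or more, those with the largest steps (18 tied at 0), and those sharing a guide. C2257 was named after its value was seen. Guides and domains were assigned from general knowledge of yeast rRNA. The methylated nucleotides and the measures were chosen with earlier results of these data known. Class totals were not used here. The functions were tested on simulated pileups. Python 3.11.15, numpy 2.4.6, pandas 2.3.3, scipy 1.17.1 and matplotlib 3.10.9 were used.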

Additional observations from a re-analysis of the deposited data

How the results depend on the processing

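The alternatives changed 1 choice at a time, and those on the bond after the +1 nucleotide and on no minimum were added after seeing the data. A count was taken as unchanged within 1.5 times, and a percentage if its first 3 digits stayed. Of 90 values under an alternative, 48 were unchanged, 41 moved and 1 reversed, and the causes were not tested. No paired analysis was possible because only a single-sample control was analysed, and no replicate was left out.

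For hits, the number above the same-base median was 9, and 1 with a minimum of 500 hits, which leaves 6 nucleotides. The median share changed at the methylated nucleotides was 0.339%. It was 0% with a minimum of 50 hits or with deletions alone, 0.371% with a minimum of 500, 0.283% with substitutions alone, 0.311% without nucleotides over 5000 hits and 0.816% for summed hits. Nucleotides with 1% or more were 6 of 23, and 0 with deletions alone. With a minimum of 500 hits they were 1 of the 6 left. Those above the same-base median were 12 of 23, 1 with deletions alone, and 4 of 6 with a minimum of 500 hits. For deletions alone that median is 0, because only 14.1% of unlisted nucleotides had a deletion. The count then only tells how many methylated nucleotides had any deletion. The share of other nucleotides at 1% or more in these settings was not computed.

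At the −1 neighbours the median of 0.45% became 0% with a minimum of 50 hits or deletions alone, 0.295% with a minimum of 500 or without nucleotides over 5000 hits, 0.141% with substitutions alone and 0.551% summed. The count of 3 became 9 at a threshold of 0.5%, and 1 with deletions alone or a minimum of 500. At the +1 neighbours the median of 0.134% became 0% with deletions or with substitutions alone, 0.336% with a minimum of 500 hits, 0.123% without nucleotides over 5000 hits and 0.589% summed. The count of 3 became 7 with a minimum of 50 hits or a threshold of 0.5%, and 1 with a minimum of 500 or with substitutions alone. For the counts at −1 and +1, the share of other nucleotides at each of these settings was not computed. A different minimum also changes how many neighbours are counted.

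For the step on the 3′ side, the count of 0 at 10% or more became 3 at a threshold of 5%, 2 at the 5′ bond and 7 at the bond after the +1 nucleotide. The share of other bonds with a step of 5% or more was not computed. Bonds without a step were 18 of 23 (78.3%). They were 31 of 37 with no minimum (83.8%) and 5 of 6 with a minimum of 500 hits (83.3%). At the bond after the +1 nucleotide they were 6 of 23 (26.1%). The percentage without a step exceeded that of the same bases elsewhere by 29.1 percentage points, and by 7.5 at the 5′ bond, 27.2 with no minimum, 27.6 with a minimum of 50 hits, 60.7 with a minimum of 500, 32.4 against nucleotides within 100 positions and 28.6 without nucleotides over 5000 hits. At the bond after the +1 nucleotide the difference was -21.2.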

Other observations

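Within 6 nucleotides of the 37 methylated ones, 14 nucleotides were changed in 10% or more of their hits, out of 355 with any hits (3.94%), against 2.96% of the nucleotides elsewhere in 25S rRNA. With 100 hits or more, 8 of 209 were changed to this extent (3.83%), against 2.82% elsewhere. Of the 14, 6 had fewer than 100 hits, and 1, Am2281, was itself ribose-methylated. C2278 and U2634, both known to carry a methyl group on the base, were among them, with 13 substitutions in 125 hits (10.4%) and 13 in 26 hits. Substitutions made up all changes at G659 (28 in 98 hits, 28.6%), G1127 (18 in 51 hits, 35.3%), C2257, C2726 (20 in 190 hits, 10.5%) and C2812 (13 in 46 hits, 28.3%). Deletions prevailed at G813 (10 of 10 changes in 85 hits), G1434 (12 of 12 changes in 107 hits), A1435 (12 of 15 changes in 107 hits), U2731 (17 of 19 changes in 186 hits) and U2955 (138 of 154 changes in 870 hits). At U2613, 523 of 4431 hits were changed (11.8%). These nucleotides were chosen by their share of changes, which is given as a description.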
